A study of Homo sapiens with 4 samples.

Results

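The replication-dependent and linker histone genes were examined as 1 family in ATAC-seq libraries of HEK293T cells, a long-established cell line of human embryonic kidney origin. ATAC-seq measures open chromatin as the fragments that the Tn5 transposase cuts from it, and the values here are counts of fragments at promoters. The members were chosen by gene symbol: H2AC, H2BC, H3C or H4C followed by a number, or H1-1 to H1-6. The rule found 69 of the 28775 promoters in the table, of which 6 belong to linker histone H1, 17 to H2A, 18 to H2B, 13 to H3 and 15 to H4. In the gene table, 55 members lie on chromosome 6, 13 on chromosome 1 and 1 (H4C16) on chromosome 12. The rule used names and no measured value, but the family was taken up with results of these libraries known, so the values below describe it and are not independent support for a direction.

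The overexpression group (n = 2 libraries) was HEK293T transfected to express MORC2, a DNA-compacting ATPase, as a fusion with the fluorescent protein meGFP. The control group (n = 2) was HEK293T given lipofectamine, the transfection reagent; whether it came with an empty plasmid is not stated in the labels. Both groups have the line's own MORC2, and the share of cells that took up the plasmid was not measured in these libraries. The labels do not say whether the 2 libraries of a group came from separate cultures. The p-values therefore measure a spread between libraries that may be technical. In the test used, that spread was pooled over promoters of like abundance, so p-values and SEs do not reflect a single promoter's own spread.

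Replication-dependent histone genes are small, have no introns and are expressed mainly in S phase, when the cell packages newly made DNA. Their mRNAs end in a stem-loop that is bound by SLBP, and their transcription is gathered in a nuclear compartment, the histone locus body, that is organised by NPAT. Many H2A and H2B genes sit head to head and share 1 promoter region, and the core histones form the nucleosome while H1 binds the linker DNA between nucleosomes.

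Total promoter counts ranged from 3734519 to 10255182 per library, and both overexpression libraries had fewer than both control libraries. Mitochondrial promoters took 51.9 and 55.6% of counts in control and 74.7 and 73.8% in overexpression, so nuclear promoters held between 979895 and 4928862 counts per library. Accessibility of single promoters is given as TMM-scaled CPM, which is the count divided by a library total that was rescaled so that most promoters match. The promoter of MORC2 itself held 257 and 162 fragments in the controls, against 87 and 42 with MORC2, a log2 difference of -0.14 (SE 0.155, adjusted p = 0.695, edgeR quasi-likelihood test, not past the threshold), and this is no check of a gene supplied on a plasmid. Of the markers of the line, VIM, EMX2 and LHX1 had 51.4, 36.8 and 12.7 CPM in control and PAX2 had 3.59, while the blood markers PTPRC and CD3E and the liver marker ALB had between 0.23 and 0.84, and the liver gene APOA1 had 14.2. The markers KRT8, KRT18 and NEFL had 5.96, 6.50 and 17.0 CPM in control, and the endothelial genes CDH5 and PECAM1 had 3.58 and 1.27. In the comparison of the groups, none of the 7 line markers passed the threshold in the edgeR test. At an unadjusted p under 0.05, 4 of them were higher (PAX2 0.67, KRT8 0.59, KRT18 0.56 and LHX1 0.33 in log2) and 0 lower. Of all promoters tested, 8.66% were higher and 8.57% lower at that limit. The 7 markers had a median of 0.33 and a ratio of nuclear shares of 1.11. The 6 genes of other cell types had a ratio of 1.27 (1.08 to 1.46 over single libraries), and the part of either list in the histone values was not tested.

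The promoter sequences are shown first, because members differ in their promoter elements and because near-identical copies limit how reads can be placed. RefSeq promoter windows on assembly GRCh38.p14 were matched for 64 of the 69 members, and the 250 bases before the start site were searched on both strands. The letters searched were the octamer ATTTGCAT, the TATA box TATAAA, the CCAAT box CCAAT, the H1 box AAACACA, the H4 element GGTCCG and the E2F site TTTGGCGC or TTTCCCGC. The octamer was found in 11 of 16 H2A and 14 of 18 H2B promoters, in 1 of 11 H3 promoters, and in none of the H1 or H4 promoters, against 1.68% of 19554 promoters searched. The H3 promoter is that of H3C4, whose window in the table is the same 300 bases as that of H2AC7, so it is the H2A match counted again. Head-to-head H2A and H2B genes also have overlapping windows, by 253 bases at H2BC11 and H2AC11. Letters there can be counted once for each gene, so the H2A and H2B numbers are not independent. The H1 box was found in 6 of 6 H1 promoters and in none of the other members, against 4.18% of promoters. The H4 element was found in 12 of 13 H4 promoters, all but H4C7, and in H2AC20, H2BC21 and H3C7, against 11.1% of promoters. The windows of H2AC20 and H2BC21 overlap by 265 bases, and their match is the same site. CCAAT was present in every H1, H2A, H2B and H3 promoter searched and in 3 of 13 H4 promoters (H4C6, H4C9 and H4C13), against 34.0% of promoters, and TATAAA in 42 of 64 members against 9.55%. The E2F letters were found in H4C7 alone, against 2.38% of promoters.

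The first 3 promoters show 3 H2B genes with the same elements and different accessibility. They are H2BC11 at chr6:27132796-27133045 (minus strand), H2BC12 at chr6:27146859-27147108 (minus strand) and H2BC3 at chr6:26043714-26043963 (minus strand), and capitals mark the octamer, TATA and CCAAT letters on either strand. H2BC11 and H2BC12 are among the open members and H2BC3 is among the members with the fewest counts.
H2BC11: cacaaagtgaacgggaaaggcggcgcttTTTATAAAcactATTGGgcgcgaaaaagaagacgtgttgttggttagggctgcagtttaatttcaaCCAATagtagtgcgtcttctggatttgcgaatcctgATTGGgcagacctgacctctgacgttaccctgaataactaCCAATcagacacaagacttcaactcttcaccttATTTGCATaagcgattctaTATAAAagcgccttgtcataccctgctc
H2BC12: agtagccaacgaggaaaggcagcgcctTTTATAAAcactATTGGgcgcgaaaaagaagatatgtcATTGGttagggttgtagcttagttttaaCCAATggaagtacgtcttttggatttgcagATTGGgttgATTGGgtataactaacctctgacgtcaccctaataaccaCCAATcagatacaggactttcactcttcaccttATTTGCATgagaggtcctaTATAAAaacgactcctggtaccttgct
H2BC3: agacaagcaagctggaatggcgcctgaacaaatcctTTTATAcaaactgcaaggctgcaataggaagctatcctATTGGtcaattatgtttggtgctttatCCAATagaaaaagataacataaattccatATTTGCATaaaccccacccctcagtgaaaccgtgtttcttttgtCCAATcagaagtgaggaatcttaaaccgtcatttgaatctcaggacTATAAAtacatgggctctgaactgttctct

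The next pair shows an open and a nearly closed linker histone promoter. H1-2 lies at chr6:26056471-26056720 (minus strand) and H1-5 at chr6:27867589-27867838 (minus strand), and capitals mark the H1 box and CCAAT.
H1-2: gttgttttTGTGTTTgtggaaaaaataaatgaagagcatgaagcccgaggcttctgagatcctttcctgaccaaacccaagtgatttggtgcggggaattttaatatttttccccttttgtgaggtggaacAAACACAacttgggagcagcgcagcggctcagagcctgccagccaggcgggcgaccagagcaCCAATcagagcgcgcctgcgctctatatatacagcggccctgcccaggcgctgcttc
H1-5: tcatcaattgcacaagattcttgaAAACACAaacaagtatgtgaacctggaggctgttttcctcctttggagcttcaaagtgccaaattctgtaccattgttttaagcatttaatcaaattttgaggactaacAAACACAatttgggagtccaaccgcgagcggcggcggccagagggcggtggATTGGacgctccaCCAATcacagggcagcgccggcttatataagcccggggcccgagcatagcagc

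The last sets show copies. H4C11 at chr6:27823842-27824091 (plus strand) and H4C12 at chr6:27831561-27831810 (minus strand) had 245 of 250 bases identical, and H2AC13 at chr6:27807923-27808172 (plus strand) and H2AC14 at chr6:27814778-27815027 (minus strand) had 205 of 250. H4C14, at chr1:149832407-149832656 (plus strand), has the same 300-base window as H4C15. Capitals mark the H4 element, TATA, CCAAT and octamer letters.
H4C11: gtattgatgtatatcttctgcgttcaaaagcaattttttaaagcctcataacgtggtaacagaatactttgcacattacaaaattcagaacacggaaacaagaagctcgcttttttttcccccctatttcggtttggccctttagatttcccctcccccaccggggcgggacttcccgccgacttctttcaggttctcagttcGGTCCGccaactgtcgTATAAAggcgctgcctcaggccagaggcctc
H4C12: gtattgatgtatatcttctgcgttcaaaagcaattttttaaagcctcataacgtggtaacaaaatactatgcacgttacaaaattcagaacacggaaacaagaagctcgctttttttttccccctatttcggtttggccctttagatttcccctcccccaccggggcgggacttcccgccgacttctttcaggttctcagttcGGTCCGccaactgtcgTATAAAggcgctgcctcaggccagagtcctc
H2AC13: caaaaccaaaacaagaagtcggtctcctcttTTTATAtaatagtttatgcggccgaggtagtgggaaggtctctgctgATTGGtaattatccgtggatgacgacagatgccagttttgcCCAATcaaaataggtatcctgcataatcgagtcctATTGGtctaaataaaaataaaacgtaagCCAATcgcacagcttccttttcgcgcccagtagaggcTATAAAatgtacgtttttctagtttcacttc
H2AC14: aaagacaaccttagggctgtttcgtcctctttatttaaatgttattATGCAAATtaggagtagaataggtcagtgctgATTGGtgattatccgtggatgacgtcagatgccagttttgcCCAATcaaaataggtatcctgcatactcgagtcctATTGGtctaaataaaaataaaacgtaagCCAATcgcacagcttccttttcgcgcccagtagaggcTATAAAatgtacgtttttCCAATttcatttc
H4C14: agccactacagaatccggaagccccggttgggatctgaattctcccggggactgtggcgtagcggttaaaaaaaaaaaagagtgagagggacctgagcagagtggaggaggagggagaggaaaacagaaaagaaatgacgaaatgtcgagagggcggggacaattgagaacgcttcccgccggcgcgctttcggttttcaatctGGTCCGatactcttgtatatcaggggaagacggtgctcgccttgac

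In control cells the histone promoters covered nearly the whole range of accessibility. The median member had 7.58 CPM, against 7.04 for the median nuclear promoter, and 34 of 69 members lay below that nuclear median. Members under 2 CPM in control numbered 28 of 69, and 2 members (H4C14 and H4C15) had no count in any library. A count of 0 allows up to 3 counts, worth 0.214 and 0.288 CPM in the controls and 0.559 and 1.03 CPM with MORC2, for counting error only.

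**Figure D1:**
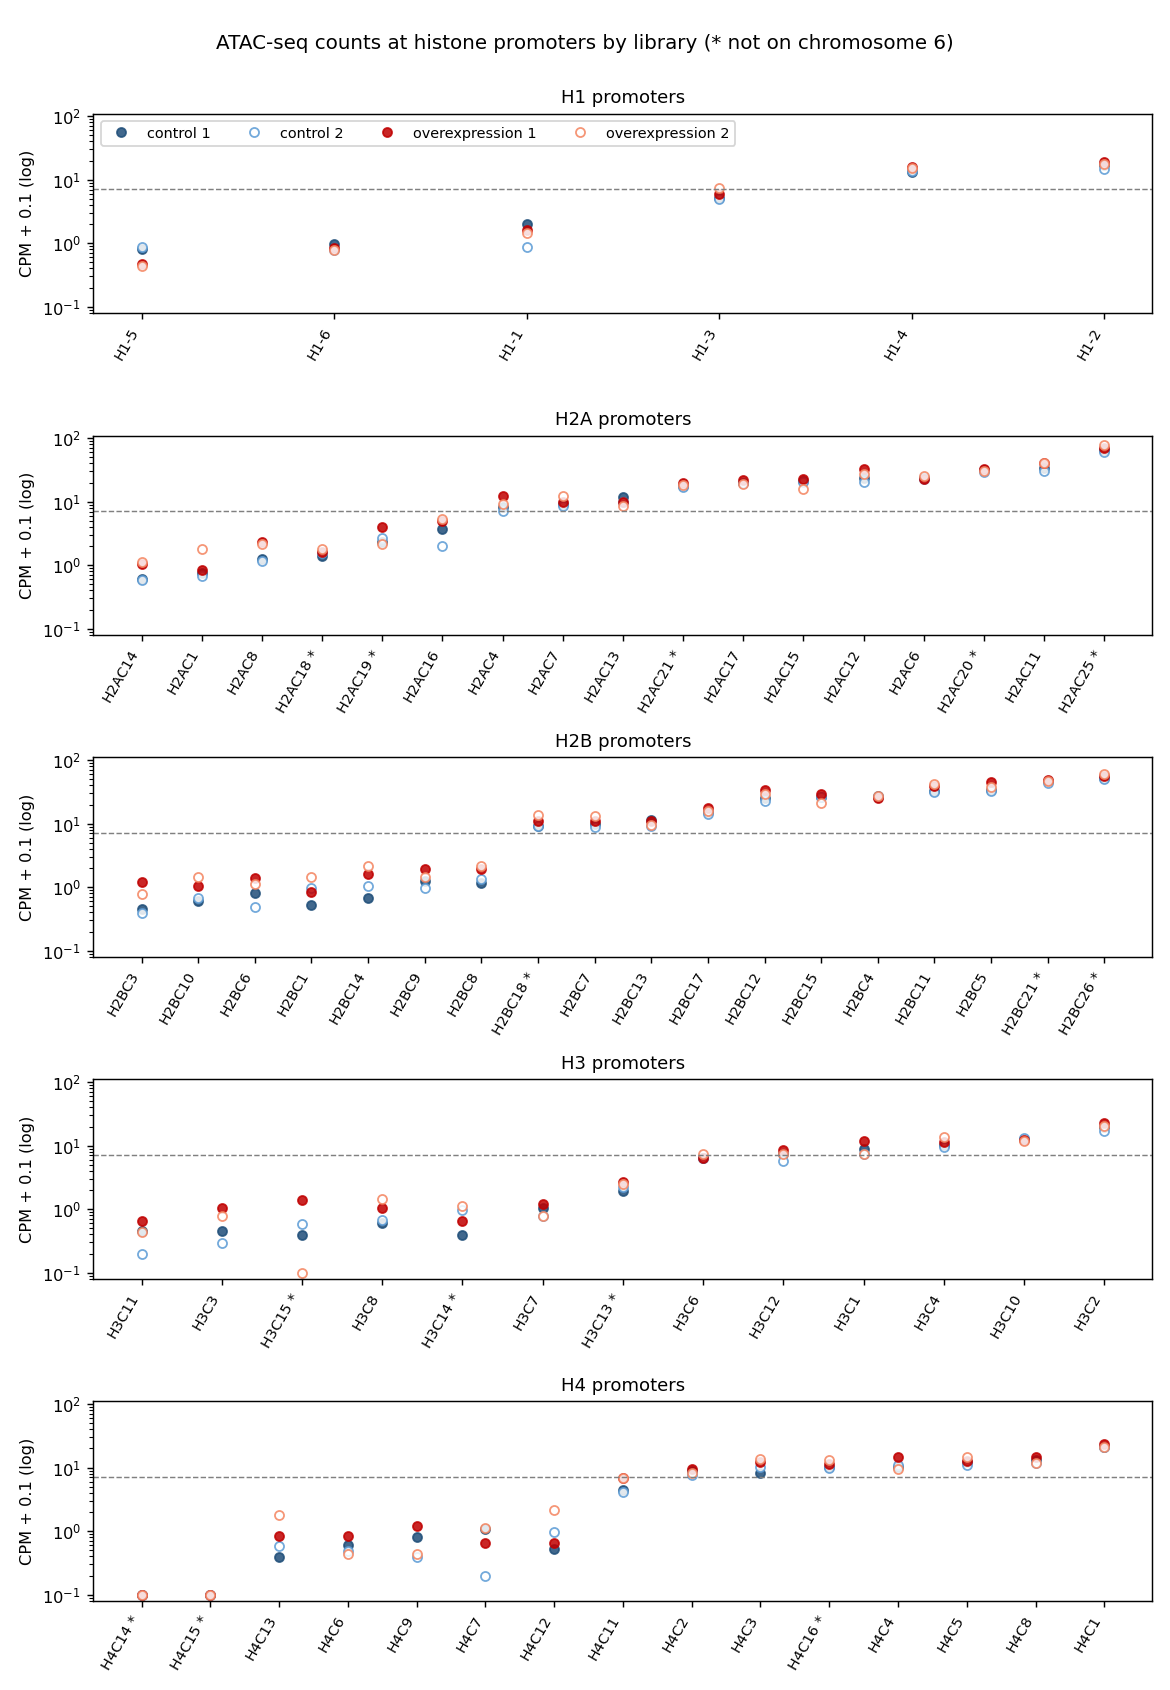
TMM-scaled CPM plus 0.1 on a log axis for each of the 69 histone promoters in the 4 libraries (filled points replicate 1, open points replicate 2, blue control, red and orange overexpression), with the dashed line at the median nuclear promoter in control and a star for members outside chromosome 6. Each class holds both promoters above the line and promoters near or below 1 CPM, and H4C14 and H4C15 sit at 0.

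Of the linker histones, which bind the DNA between nucleosomes, H1-2 was the most open, holding 234 and 151 fragments in the controls, against 101 and 52 with MORC2. Its control level was 15.6 ± 1.52 CPM (SD, n = 2), next to 13.3 ± 0.197 for H1-4 and 4.90 ± 0.128 for H1-3. H1-5 held 10 and 8 fragments in the controls, against 2 and 1 with MORC2, a level of 0.74 ± 0.040 against 0.36 ± 0.021 CPM (SD, n = 2). It was the only H1 gene whose overexpression libraries both lay below control, at counts of 1 and 2 that are under the limit a count of 0 allows. The genes known from testis or from few tissues were low as well, with control levels of 0.76 ± 0.129 for H1-6, the testis H1, and 1.35 ± 0.816 for H1-1.

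Among the H2A promoters H2AC25 was the highest of all 69 members, holding 928 and 638 fragments in the controls, against 369 and 226 with MORC2. It shares its promoter region on chromosome 1 with H2BC26, which held 726 and 515 fragments in the controls, against 298 and 177 with MORC2. Their control levels of 63.7 ± 3.38 and 50.6 ± 1.57 CPM (SD, n = 2) exceeded those of 99.4 and 98.3% of nuclear promoters, and both were higher in both overexpression libraries. H2AC11, H2AC20, H2AC6 and H2AC12 followed with control levels of 32.2, 30.2, 22.9 and 22.1 CPM. At the low end H2AC14 held 7 and 5 fragments in the controls, against 5 and 3 with MORC2, a control level of 0.49 ± 0.013 CPM. H2AC1, a testis H2A gene, had 0.61 ± 0.046 CPM in control.

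The H2B promoters fell on either side of a gap. In control 7 of 18 lay under 2 CPM (H2BC1, H2BC3, H2BC6, H2BC8, H2BC9, H2BC10 and H2BC14), and the lowest of the other 11 was H2BC18 with 9.09 CPM. H2BC3 was the lowest, holding 5 and 3 fragments in the controls, against 6 and 2 with MORC2. H2BC26, H2BC21, H2BC5 and H2BC11 were the highest, with control levels of 50.6, 44.9, 33.5 and 32.4 CPM. H2BC1, the testis H2B, had 0.65 ± 0.309 CPM in control. H2BC10 and its neighbour H3C8 had the same counts in every library (7 and 6 in control, 5 and 4 in overexpression). Their RefSeq windows do not overlap, and whether the same fragments were counted for both was not tested.

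H3 had the lowest median of the core classes, at 1.98 CPM in control, and 7 of its 13 members were under 2 CPM. This order rests on the members outside chromosome 6. On chromosome 6 alone the H3 median was 6.39 CPM and the H4 median 6.18 CPM. The 3 H3 members on chromosome 1 had a median of 0.57 CPM and include the copies H3C14 and H3C15, whose values are uncertain. H3C2 was the most open H3 promoter, holding 271 and 177 fragments in the controls, against 120 and 60 with MORC2, a control level of 18.2 ± 1.62 CPM (SD, n = 2). H3C11 was the lowest, holding 5 and 1 fragments in the controls, against 3 and 1 with MORC2. Of the H4 members, H4C1 was the highest, holding 300 and 217 fragments in the controls, against 128 and 61 with MORC2 (21.1 ± 0.362 CPM in control), and H4C14 and H4C15 the lowest. H4C16, the only member on chromosome 12, had 9.91 ± 0.288 CPM in control.

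Promoter letters were read beside the levels as a description. Among H2B promoters the 14 with the octamer ranged from 0.32 to 44.9 CPM in control, and the 4 without it from 10.1 to 50.6 CPM, so all 7 H2B promoters under 2 CPM hold the octamer. Among H1 promoters the H1 box was present at every level, from 0.74 CPM at H1-5 to 15.6 CPM at H1-2. Of the H4 promoters, the 12 with the H4 element ranged from 0 to 12.4 CPM. The value of 0 is that of the copies H4C14 and H4C15, whose counts are uncertain. H4C1, the most open H4 promoter with 21.1 CPM, and H4C3 with 9.09 CPM had no matched sequence and were not searched for any letters. The 3 H4 promoters with CCAAT had 0.38 to 0.50 CPM in control. The 10 without it ranged from 0 to 12.4 CPM with a median of 6.18 CPM, and 4 of them were under 2 CPM.

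Copies of one promoter could have very unlike counts. H4C11 held 61 and 42 fragments in the controls, against 36 and 20 with MORC2, while H4C12 had 6 and 9 and then 3 and 6. H2AC13 held 164 and 102 fragments in the controls, against 52 and 25 with MORC2, while H2AC14 had 7 and 5 and then 5 and 3. The chromosome 1 inverted duplication gave low counts throughout: H2AC18 had 18 and 15 in control and 8 and 5 in overexpression, H2AC19 had 31 and 27 and then 21 and 6, H3C14 had 4 and 9 and then 3 and 3, and H3C15 had 4 and 5 and then 7 and 0. Within these pairs the GRCh38.p14 windows share unbroken runs of 299 bases (H2AC18 and H2AC19) and 296 bases (H3C14 and H3C15), and H4C14 and H4C15 share 300. The study kept reads of high mapping quality, and the part of that filter in these counts was not tested, so values of these copies are uncertain.

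**Figure D2:**
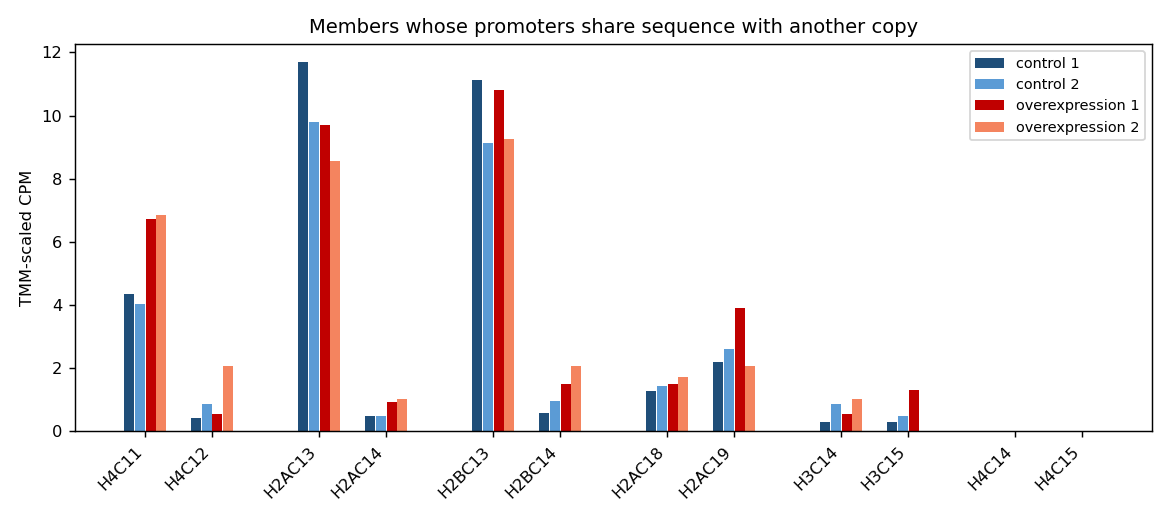
TMM-scaled CPM in each of the 4 libraries (bars, coloured by library) for 6 pairs of members whose promoter windows share sequence. H4C11, H2AC13 and H2BC13 stand above their copies H4C12, H2AC14 and H2BC14 in every library, and H4C14 and H4C15 are at 0.

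Summed over the 69 members, histone promoters took a larger share of nuclear promoter counts in both overexpression libraries than in both control libraries. The share was 0.218% (Wilson 95% interval 0.214 to 0.222) and 0.204% (0.1997 to 0.209) in control, and 0.257% (0.250 to 0.265) and 0.251% (0.242 to 0.261) in overexpression. The means were 0.211% ± 0.0097 and 0.254% ± 0.0041 (SD, n = 2 each), a ratio of 1.20, and the ratio of single libraries ran from 1.15 to 1.26. The groups did not overlap, and the intervals of control did not overlap those of overexpression. The intervals of the 2 control libraries did not overlap each other either, so separate intervals do not mark a group difference. They cover counting error only. They also treat all counts as separate, although overlapping windows can count a fragment for neighbouring members. With 1 member of each of the 52 groups that share sequence in their 300-base windows, the ratio was 1.22. The share is taken of nuclear counts and so does not use the mitochondrial counts, but depth and the mitochondrial share differ between the groups as well, and their part in the ratio was not tested. In bulk libraries, more cells with open histone promoters and more opening per cell cannot be told apart.

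The same direction was seen in every class, with ratios of group means between 1.19 and 1.24. H2A took 0.0781 and 0.0724% in control and 0.0901 and 0.0887% in overexpression, and H2B took 0.0834 and 0.0791% and then 0.0989 and 0.0972%. The other classes had ratios of 1.21 for H1, 1.21 for H3 and 1.24 for H4. Differences between classes were not tested, and the ranges of single-library ratios of all 5 classes overlap, with the widest at H3 (1.12 to 1.30).

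**Figure D3:**
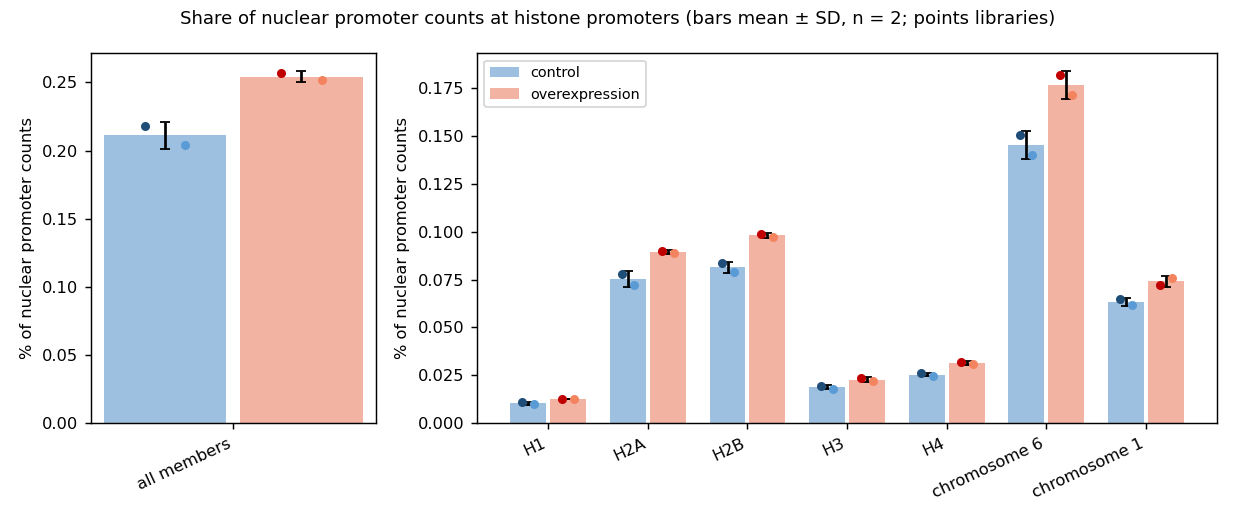
Percent of nuclear promoter counts at histone promoters in control (blue) and overexpression (red), for all 69 members, for each class and for the members on chromosomes 6 and 1. Bars are means from 0 with SD over 2 libraries and points are libraries (replicate 1 left, replicate 2 right). In each group of bars both overexpression points lie above both control points.

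Of the 69 members 46 had enough counts to be tested, and 23 did not pass the filter. Past the adjusted threshold of 0.05 in the edgeR quasi-likelihood test, 2 were higher and 0 lower. Of the 23407 promoters tested 2.47% were past it, 1.16% higher and 1.3% lower. The direction holds relative to TMM scaling: with library totals the median of all promoters tested was -0.78 in log2, and 0 members were higher and 34 lower. The 2 genes past the threshold, H2AC12 and H2BC12, lie close together on chromosome 6. H4C9 (10 and 3 fragments in the controls, not tested) falls between them by gene start, but that order does not place the promoters. The 250 bases before H4C9 are at chr6:27139032-27139281, and those before H2BC12, on the minus strand, are at chr6:27146859-27147108. H2AC12 had no matched promoter sequence, and whether it shares a promoter region with H2BC12 was not tested. H2AC12 held 332 and 213 fragments in the controls, against 176 and 79 with MORC2, which is 22.1 ± 2.25 against 29.9 ± 4.06 CPM (SD, n = 2), and rose by 0.46 in log2 (SE 0.127, adjusted p = 0.0228). H2BC12 held 358 and 237 fragments in the controls, against 184 and 85 with MORC2, which is 24.1 ± 1.92 against 31.7 ± 3.66 CPM, and rose by 0.41 in log2 (SE 0.124, adjusted p = 0.0425). Both overexpression libraries lay above both control libraries at each gene, and the neighbouring microRNA gene MIR3143 had like values (22.1 ± 1.84 and 29.8 ± 3.42 CPM, log2 fold change of 0.46, adjusted p = 0.0274). MIR3143 follows H2AC12 in the gene table, and the 3 promoters were not counted as independent.

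The call at both genes depended on single libraries. Without control replicate 2 the adjusted p of H2AC12 was 0.219, and without overexpression replicate 1 it was 0.526, while it stayed under the threshold without control replicate 1 (0.0378) or overexpression replicate 2 (0.0428). The adjusted p of H2BC12 was 0.0833 without control replicate 1, 0.254 without control replicate 2, 0.557 without overexpression replicate 1 and 0.0938 without overexpression replicate 2. With the replicate number as a block H2AC12 was past the threshold (0.0332) and H2BC12 was not (0.0558). With library totals both lay below 0, at -0.34 and -0.39.

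In the direction of their log2 fold changes, 41 of the 46 tested members were above 0 with TMM (1 with library totals), against 51.4% of all promoters tested. Members with both overexpression libraries above both control libraries numbered 29 of 46, against 24.8% of promoters tested, and members with both below numbered 2, against 24.9%. At an unadjusted p under 0.05 there were 11 higher and 0 lower, against 8.66 and 8.57% of promoters. The median log2 fold change was 0.25 over the 46 members and 0.0099 over all promoters tested, and with library totals these were -0.55 and -0.78. Members are not replicates, and in 13 pairs the 300-base RefSeq windows overlap, so a fragment can count for both genes. The counted windows of 2 kb are wider, so further neighbouring members can share fragments, and such pairs were not counted.

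**Figure D4:**
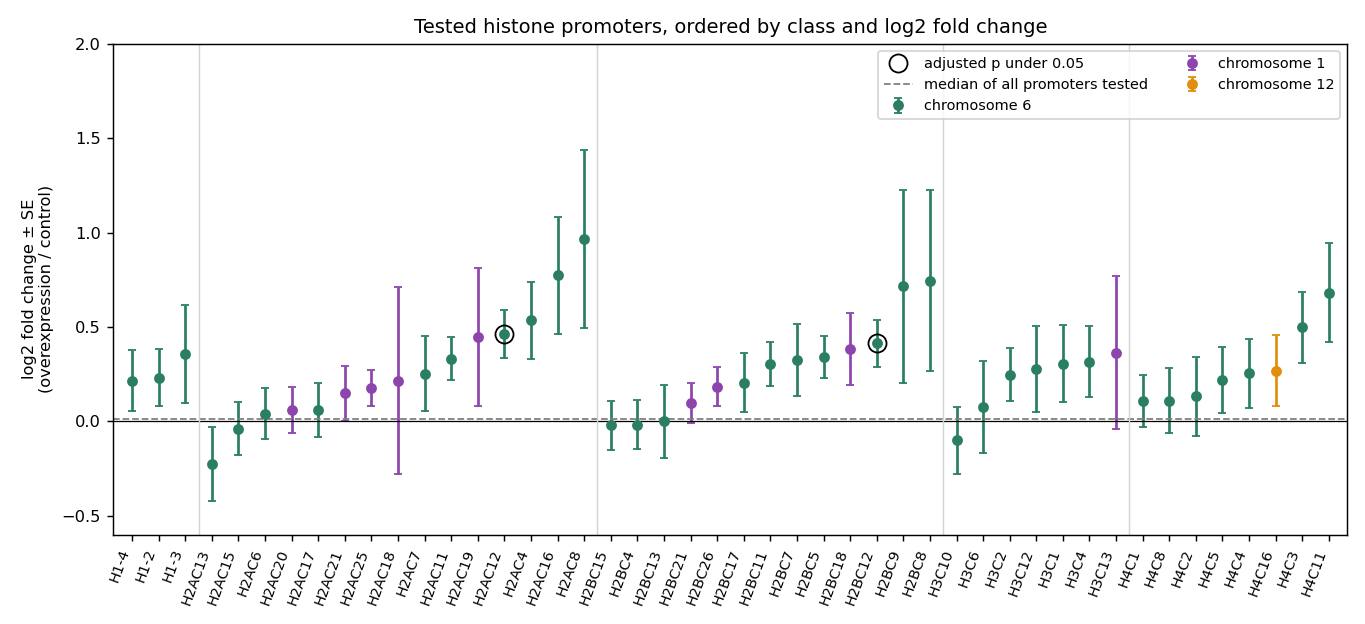
Log2 fold change of overexpression over control with its SE for the 46 tested histone promoters, ordered within each class and coloured by chromosome. Circles mark H2AC12 and H2BC12, the dashed line is the median of all promoters tested (0.0099), and 5 members lie below 0 with this TMM scaling (the median is -0.55 with library totals).

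The largest log2 fold changes belonged to members with few counts. H2AC8 held 16 and 11 fragments in the controls, against 12 and 6 with MORC2, a log2 difference of 0.97 (SE 0.469, adjusted p = 0.261). H2AC16 held 51 and 20 fragments in the controls, against 26 and 15 with MORC2 (0.77, SE 0.310, adjusted p = 0.154). H2BC8, which shares its promoter region with H2AC8, had 15 and 13 and then 10 and 6 (0.75, SE 0.482, adjusted p = 0.431). None of the 3 passed the threshold. Their overexpression libraries lay above control, as did those of 24.8% of all promoters tested. The 3 were picked by their log2 fold changes, so this is no further support.

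Among the members with more counts, the head-to-head H2A and H2B pairs spanned log2 fold changes from below 0 to over 0.3. H2BC11 and H2AC11, whose promoters overlap by 253 bases, had log2 fold changes of 0.30 (SE 0.115, adjusted p = 0.126) and 0.33 (SE 0.114, adjusted p = 0.0857). H2BC4 and H2AC6, another pair, had -0.02 and 0.04 with SEs of 0.129 and 0.134. H2BC15 and H2AC15 had -0.02 and -0.04 with SEs of 0.129 and 0.141. H2AC25 and H2BC26 both had 0.18 with SEs of 0.0965 and 0.102. Differences between pairs were not tested.

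The lowest log2 fold changes were those of H2AC13, H3C10 and H2AC15. H2AC13 had 10.7 ± 1.33 CPM in control and 9.13 ± 0.796 in overexpression (SD, n = 2), a log2 difference of -0.23 (SE 0.197, adjusted p = 0.585). H3C10 held 176 and 137 fragments in the controls, against 65 and 34 with MORC2, with -0.10 (SE 0.177, adjusted p = 0.815). H2AC13 and H3C10 were the 2 tested members whose overexpression libraries both lay below control. H2AC15 held 292 and 215 fragments in the controls, against 122 and 46 with MORC2, and its groups overlapped.

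By class, the medians of the tested members were 0.23 for H1 (3 of 6 tested), 0.21 for H2A (15 of 17), 0.30 for H2B (13 of 18), 0.28 for H3 (7 of 13) and 0.24 for H4 (8 of 15). Measured from the median of all promoters, the H3 median fell from 0.27 to 0.15 without overexpression replicate 1 and to 0.16 without control replicate 2, the H2A median from 0.21 to 0.14 without overexpression replicate 2, and the H4 median rose from 0.23 to 0.37 without overexpression replicate 1. The H1 median rose from 0.22 to 0.34 without control replicate 1. By chromosome the medians were 0.25 on chromosome 6 (36 of 55 tested) and 0.18 on chromosome 1 (9 of 13). H4C16 on chromosome 12 had 0.27 (SE 0.187, adjusted p = 0.473). The chromosome 6 members took 0.150 and 0.140% of nuclear counts in control and 0.182 and 0.171% in overexpression, a ratio of 1.22. The chromosome 1 members took 0.0648 and 0.0617% and then 0.0721 and 0.0760%, a ratio of 1.17. They form 2 groups that lie apart: 11 members, and the pair H2AC25 and H2BC26 near chr1:228457853-228458102. These groups took means of 0.0308 and 0.0325% of nuclear counts in control, with ratios of 1.15 and 1.20. The range of single-library ratios was 1.14 to 1.30 on chromosome 6 and 1.11 to 1.23 on chromosome 1. Differences between the chromosomes, or between the groups of chromosome 1, were not tested. The 31 other genes that lie between chromosome 6 members in the gene table, such as the butyrophilin genes, had a ratio of 1.14 and a median log2 fold change of 0.13 over the 25 tested. They include MIR3143, which was not counted as independent of H2AC12. This list is therefore not fully separate from the histone members.

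Log2 fold changes moved with abundance over the whole table, and this was read beside the histone values. With the promoters tested divided into 4 groups of equal size from the least to the most abundant, the medians were 0.39, 0.13, -0.05 and -0.13. Histone members numbered 6, 17, 11 and 12 in these groups, with medians of 0.58, 0.31, 0.15 and 0.18. Above the median of their own group lay 40 of 46 members, with a median excess of 0.20, and in the most abundant group 12 of 12 did. That group holds H2AC11, H2BC11, H2BC5 and both genes past the threshold. Measured in this way, the median excess was 0.21 for the chromosome 6 members and 0.20 for the chromosome 1 members. The chromosome medians of 0.25 and 0.18 given above do not allow for abundance. The part of the abundance trend in the values of single members was not tested beyond this.

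**Figure D5:**
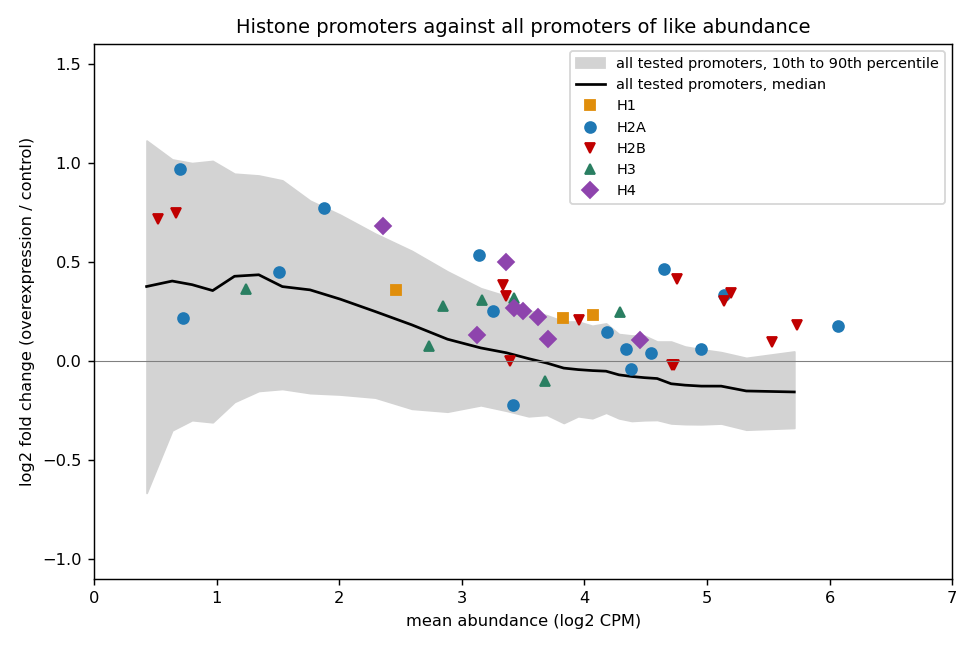
Log2 fold change against mean abundance (log2 CPM) for the 46 tested histone promoters, marked by class, over the median (line) and the 10th to 90th percentile (grey) of all promoters tested. The line falls from low to high abundance, and the members of the most abundant group all lie above it.

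Lists of variant histones and of genes that make, process or carry histones had medians below 0 with TMM. For comparison, 1.16% of the 23407 promoters tested passed the threshold higher and 1.3% lower in the edgeR test. At an unadjusted p under 0.05 the shares were 8.66% higher and 8.57% lower. Of 14 genes of replication-independent and variant histones 13 were tested, with 0 higher, 1 lower and a median log2 fold change of -0.08. It was H3-3A, which encodes the replication-independent H3.3 and had 58.6 ± 2.71 CPM in control and 46.3 ± 0.396 in overexpression (-0.34, SE 0.105, adjusted p = 0.0467). Its call was lost with the replicate block (adjusted p = 0.0573), and also with loess (0.604), upper quartile scaling (0.140), a mean count of at least 50 (0.170), DESeq2 (0.0994) and each library left out in turn (0.105 to 0.305). Of 12 genes of histone gene transcription none passed in the edgeR test (0 higher and 4 lower at an unadjusted p under 0.05), with a median of -0.21. NPAT, the organiser of the histone locus body, had 50.3 ± 0.797 CPM in control and 40.6 ± 1.66 in overexpression (-0.30, SE 0.109, adjusted p = 0.111), and YY1 had the smallest p (-0.35, SE 0.118, adjusted p = 0.0759). Of 17 genes of histone mRNA processing 1 fell, the 3′ exonuclease gene ERI1 (-0.64, SE 0.197, adjusted p = 0.0492), with a median of -0.13, and SLBP had -0.13 (SE 0.114). Of 22 histone chaperone and assembly genes 1 fell, HAT1, which acetylates new H4 (-0.48, SE 0.146, adjusted p = 0.045), with a median of -0.15. Neither call held with upper quartile scaling (adjusted p of 0.105 for ERI1 and 0.112 for HAT1), loess (0.136 and 0.239), a mean count of at least 50 (0.138 and 0.140) or limma-voom (0.0587 and 0.0535). With each library left out in turn, the adjusted p ran from 0.0581 to 0.429 for ERI1 and from 0.124 to 0.290 for HAT1. The log2 fold change of ERI1 was -1.14 without overexpression replicate 1 and -0.43 without overexpression replicate 2. None of the genes in the last 3 lists was under 2 CPM in control. Measured from the median of all promoters in the same abundance group, the medians of these 4 lists were 0.02, -0.08, -0.06 and -0.05, against 0.20 for the histone members. The same measure was 0.13 for the other genes between the chromosome 6 members, 0.25 for 21 further histone genes and pseudogenes, 9 of them tested, and 0.38 for the 7 markers of the line, so values of this size were not particular to the histone members.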

How the data were processed

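ATAC-seq was measured in 4 libraries, grouped by their labels as control (n = 2) or overexpression (n = 2). According to the methods, the authors aligned paired reads with bowtie2 to the telomere-to-telomere CHM13 assembly, filtered for proper pairs and high mapping quality, removed duplicates with Picard and counted fragments by midpoint, with promoters taken as 2 kb around the start site. The deposited table holds these whole-number counts per Entrez gene, unnormalised. The windows of neighbouring genes can overlap. The deposited peak lists were not used here.

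Symbols came from a RefSeq table of GRCh38.p14 (28763 of 28775 promoters named), used for names, neighbours and promoter sequences. Counts were filtered with filterByExpr, scaled by TMM and tested with the legacy quasi-likelihood F-test of edgeR 4.0.16 (R 4.3.3, two-sided), with Benjamini-Hochberg adjustment over 23407 promoters and a threshold of 0.05. The SE is the log2 fold change over the square root of F. Intervals of shares are Wilson 95% intervals. Reads carry no molecular identifiers, so intervals cover counting error only.

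Named genes were MORC2, the highest and lowest member of each class, members past the threshold, the 3 highest and 3 lowest log2 fold changes, testis and duplicated members, and genes past the threshold, or with the smallest p, in each list. Further members are named in the text as examples, after their values were seen. The members, lists and this rule were chosen with earlier results of these data known. Alternatives used DESeq2 1.42.0, limma 3.58.1, other scalings and filters, a replicate block and single libraries left out.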

Additional observations from a re-analysis of the deposited data

How the results depend on the processing

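Low counts kept 23 members out of the test, and 2 libraries a group leave the spread poorly known. The direction of the histone values is relative to the scaling. With library totals, under which the median of all promoters was -0.78, the median of the histone members reversed to -0.55. In that setting 34 members passed (all lower) and 16319 promoters passed (51 higher, 16268 lower). Library totals include the mitochondrial counts, which took 51.9 and 55.6% in control and 74.7 and 73.8% in overexpression. The part of that share in the reversal was not tested. The reversed log2 fold changes with library totals were -0.56 for H1-2, -0.61 for H2AC25, -0.61 for H2BC26, -0.55 for H3C2, -0.69 for H4C1, -0.34 for H2AC12, -0.39 for H2BC12, -0.045 for H2BC8, -0.016 for H2AC16, -0.57 for H2AC18 and -0.36 for H2AC19. Measured from the median of all promoters, the members' median stayed between 0.20 and 0.30 in every alternative.

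The number of histone promoters past the threshold was 5 with upper quartile scaling (384 promoters higher and 109 lower in all, against 272 and 305 with TMM), 4 with loess on abundance (54 promoters in all, 32 higher and 22 lower), 4 with loess without mitochondrial promoters (33 in all), 4 with a mean count of at least 50 (218 in all), 1 without a filter and 0 with DESeq2, which gave an adjusted p to 6 of the members and 2078 promoters, and called 108. Without single libraries it ranged from 0 to 1, and all promoters past the threshold from 101 to 206; the lone library of a group was then assumed to vary like the other group. Loess without mitochondrial promoters and the share with 1 member per sequence group were chosen after seeing the data.

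H2AC15 turned positive with upper quartile (0.041), loess (0.031, and 0.031 without mitochondrial promoters), a mean count of at least 50 (0.032), and without single libraries ranged from -0.40 to 0.13. H2AC18 turned negative with loess (-0.21, and -0.34 without mitochondrial promoters), and without single libraries H4C1 ranged from -0.025 to 0.17 and H2AC19 from -0.22 to 0.71, both lowest without overexpression replicate 1.

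Relative to all promoters, the H1 median was 0.089 without a filter. When a mean count of 50 was required, the H1, H4 and chromosome 1 medians were 0.29, 0.29 and 0.23. With loess the H3 median was 0.14, with 4 of 7 members above 0. Without single libraries the medians ranged from 0.18 to 0.34 for H1, 0.14 to 0.27 for H2A, 0.25 to 0.35 for H2B, 0.15 to 0.34 for H3, 0.20 to 0.37 for H4, 0.18 to 0.34 for chromosome 6 and 0.14 to 0.26 for chromosome 1, and the ratio of shares from 1.17 to 1.24.

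Replicate numbers were not used as pairs, since their deviations from the group means correlated at 0.05 over 14976 promoters. With the replicate block 1 histone promoter passed, H2AC12, and 488 promoters in all. The cause of these shifts was not tested.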

Other observations

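Histone genes and pseudogenes outside the replication-dependent and H1-1 to H1-6 names numbered 21. H2BK1, an H2B-like gene, was the most open in control at 9.28 ± 0.479 CPM (SD, n = 2), from 135 and 93 fragments in the controls, against 64 and 36 with MORC2. The other 20 had at most 2.90 CPM in control, and H2AB1, H2AB2, H2AB3, H2BW3P and H2BW4P had no count in any library. Shared promoter sequence was not searched among these genes. The part of the mapping quality filter in their counts of 0 was not tested, so they are not read as closed promoters. Of the 9 tested, 7 had a log2 fold change above 0, against 51.4% of all promoters tested, and none passed the threshold in the edgeR test. At an unadjusted p under 0.05, 3 were higher and 0 lower, against 8.66 and 8.57% of all promoters tested. The germline H2B genes H2BW1 and H2BW2 had log2 fold changes of 0.87 (SE 0.463, adjusted p = 0.316) and 0.67 (SE 0.430, adjusted p = 0.423). These genes were named after their values were seen.

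The 28 members under 2 CPM in control, a limit chosen after seeing the data, had a ratio of nuclear shares of 1.67 (1.55 to 1.80 over single libraries), and the 41 others had 1.19 (1.14 to 1.25). The lower group was picked by its low control level, a choice that can itself raise the ratio, so its ratio is a description. No ratio was computed for all promoters under that limit. In the least abundant of the 4 groups of all promoters tested, the median log2 fold change was 0.39 and 78.1% were above 0. A higher ratio at low counts is thus not read as particular to histone promoters.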
